A study of Homo sapiens with 6 samples.

Results

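The ERBB receptors (EGFR, ERBB2, ERBB3 and ERBB4) and a set of proteins that act on them from inside or beside the membrane (ERRFI1, LRIG1, LRIG2 and LRIG3) were followed at the RNA level, 8 genes chosen by name out of the 58735 genes of the deposited table. The cells were HaCaT, a spontaneously immortalised human keratinocyte line labelled as wild type and grown in DMEM with serum. The groups were 3 dacomitinib samples, treated for 48 h from 70% confluence, and 3 control samples, for which no time is labelled. Dacomitinib is an irreversible inhibitor of the kinase of the ERBB receptors. Its dose is not given in the sources used here, nor is the controls' vehicle, and the design text ties 0.1% DMSO to the experimental group. All samples are of 1 cell line, and no label names the culture a sample came from; the spread that each p-value is judged against may therefore be technical.

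ERBB receptors are membrane kinases that pair with one another when an EGF family ligand binds. The paired kinases phosphorylate each other's tails and drive the RAS-ERK and PI3-kinase pathways, which keep basal keratinocytes dividing and hold back their differentiation. ERBB2 has no known ligand and serves as a partner, and ERBB3 has little kinase activity of its own but recruits PI3-kinase strongly. The pathway limits itself: ERRFI1, also called MIG6, is made in response to receptor signalling and blocks the active kinase pair, while LRIG1 is a membrane protein that brings the ubiquitin ligase CBL to the receptors and marks slowly dividing epidermal stem cells. LRIG2 and LRIG3 share its leucine-rich repeats and immunoglobulin-like domains, and their action on the receptors is less settled.

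EGFR, ERBB2 and ERBB3 were modestly higher with dacomitinib and by similar shares, whereas the feedback inhibitor ERRFI1 and LRIG3 were lower. LRIG2, which is not a receptor, rose by a similar share. Larger rises than those of the receptors were seen in 24% to 25.6% of the genes tested. Of the 8 genes, 6 passed the expression limit, a mean of at least 1 FPKM (a fragment count that the authors divided by the gene's length and by a library size) over the 6 libraries. All 6 differed between the groups, 4 higher and 2 lower, in limma on log2(FPKM + 1) with p adjusted over 13748 genes. In the same test 60.2% of all genes differed, 25.4% higher and 34.8% lower, so a call alone is common here. The dacomitinib and control libraries did not overlap in FPKM for any of the 6, against 67.1% of all tested genes without overlap, 28.9% higher and 38.2% lower. ERBB4 and LRIG1 lay below the limit. In bulk RNA, a change in the amount of RNA per cell and a change in the number of cells that hold it cannot be told apart.

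Libraries held 15171200 to 16179273 fragments on genes with dacomitinib and 14960650 to 16166582 in controls, and the lowest correlation between libraries of a group was 0.970 (log2 values across genes, which are not independent replicates). All 8 keratinocyte markers checked passed the limit, with summed levels of 953 to 1143 FPKM with dacomitinib and 1270 to 1340 FPKM in controls. They did not move as 1. In mean FPKM, KRT5, KRT14, KRT6A, SFN, ITGA6 and TP63 were lower with dacomitinib, and ITGB4 and KRT17 were higher. Markers of other skin cells summed to far less than the keratinocyte markers. Over 7 fibroblast genes the sums were 1.00 to 1.97 FPKM with dacomitinib and 0.224 to 0.523 FPKM in controls. Over 5 endothelial genes they were 10.6 to 13.5 and 1.81 to 2.22 FPKM. Over 4 melanocyte genes they were 1.94 to 2.40 and 1.08 to 1.42 FPKM, and over 4 immune genes 2.00 to 3.40 and 1.26 to 1.62 FPKM. These sums moved with the groups, and of the 20 genes only CDH5 and CD74 passed the limit. The genes of a list did not all move alike, and single genes made up most of some sums. DCN had 584 fragments with dacomitinib and 11 in controls, CDH5 had 3089 and 310, and CD74 had 453 and 192. Fewer fragments with dacomitinib were counted for COL1A1 (107 and 143), TEK (0 and 2), CD68 (2 and 4) and PTPRC (2 and 13). PDGFRA, COL1A2, KDR and TYR had no fragment in any library, and VIM had 0 fragments with dacomitinib and 3 in controls. The part of such cells in the results below was not tested. The treated columns are named by a letter that stands in no label and were assigned by elimination, so every direction rests on that assignment.

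EGFR, the receptor of EGF (ENSG00000146648, chromosome 7, 55019021 to 55211628, GRCh38), had 92.6, 93.5 and 93.8 FPKM in the dacomitinib libraries. The controls had 74.1, 74.0 and 74.6 FPKM. Every treated library was above every control, and each group was tight. EGFR rose by 0.33 in log2(FPKM + 1) (SE 0.03, 95% interval 0.24 to 0.41, adjusted p = 0.000280, limma), with 59264 and 41180 fragments behind the dacomitinib and the control values. A larger rise was seen in 24.3% of the tested genes. Among all genes of the table EGFR ranked 326 by mean FPKM, by far the most abundant of the 8.

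ERBB2, the partner receptor without a ligand (ENSG00000141736, chromosome 17, 39687914 to 39730426), had 14.7, 12.1 and 13.4 FPKM with dacomitinib, against 10.2, 10.6 and 11.2 FPKM in controls. The groups did not overlap, but the treated libraries were spread over a wider range than the controls. ERBB2 rose by 0.30 (SE 0.08, 95% interval 0.12 to 0.48, adjusted p = 0.0125, limma). ERBB3, the neuregulin receptor with a weak kinase (ENSG00000065361, chromosome 12, 56076799 to 56103505), had 8.64, 8.22 and 8.59 FPKM with dacomitinib, against 6.35, 6.38 and 6.92 FPKM in controls. It rose by 0.33 (SE 0.05, 95% interval 0.20 to 0.46, adjusted p = 0.00187, limma). In terms of mean FPKM the rises were 25.6% for EGFR, 25.7% for ERBB2 and 29.5% for ERBB3.

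ERBB4, the other neuregulin receptor (ENSG00000178568, chromosome 2, 211375717 to 212538841), was scarce in both groups, at 0.335, 0.190 and 0.185 FPKM with dacomitinib, against 0.103, 0.0996 and 0.0418 FPKM in controls. Over each group this came to 156 fragments (95% Poisson interval 132 to 182) with dacomitinib and 47 fragments (34.5 to 62.5) in controls, where the intervals cover counting error only. The groups did not overlap, and the treated mean was 2.91 times the control mean in FPKM. Below the expression limit the outcome of the test depended on the method. Without a filter the adjusted p was 0.0926 (limma), whereas limma-voom on recovered fragments of genes with at least 10 of them, an analysis chosen after seeing the data, gave a log2 difference of 1.52 (SE 0.42, adjusted p = 0.00494).

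**Figure D1:**
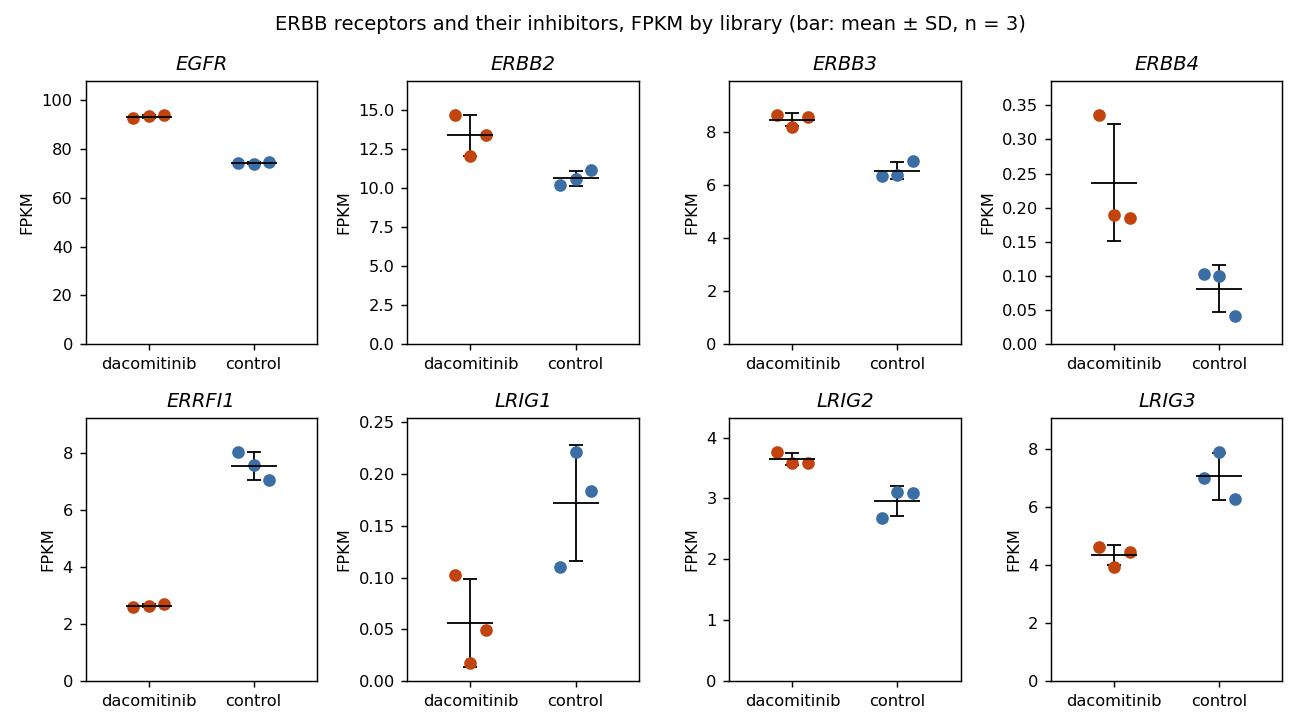
FPKM of the 8 genes in each library, 1 panel per gene with its own axis from 0; points are the 3 dacomitinib (left) and the 3 control (right) libraries, and bars give mean ± SD. EGFR lies at 92.6 to 93.8 FPKM with dacomitinib and 74.0 to 74.6 FPKM in controls, and ERRFI1 at 2.61 to 2.72 and 7.07 to 8.05 FPKM.

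The shares of EGFR, ERBB2 and ERBB3 in the receptor RNA differed between the groups by less than the spread of their libraries. EGFR made up 80.9 ± 1.18% of the summed receptor FPKM with dacomitinib and 81.1 ± 0.609% in controls, ERBB2 11.6 ± 1.01% and 11.6 ± 0.403%, and ERBB3 7.35 ± 0.122% and 7.15 ± 0.262% (SD, n = 3). ERBB4 made up at most 0.288% of the sum in any library, at 0.205 ± 0.0723% with dacomitinib and 0.0893 ± 0.0384% in controls. The summed level of the 4 receptors was 115.4 ± 1.28 FPKM with dacomitinib and 91.5 ± 1.05 FPKM in controls. Shares and ratios within a library do not depend on how libraries were scaled to each other, which the differences above do.

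Set against EGFR in the same library, ERBB2, ERBB3 and LRIG2 were at nearly the same level in both groups, and ERRFI1 and LRIG3 were not. Per 1000 FPKM of EGFR there were 143.4 ± 14.6 FPKM of ERBB2 with dacomitinib and 143.2 ± 6.04 in controls, and 90.9 ± 2.76 FPKM of ERBB3 with dacomitinib and 88.2 ± 3.87 in controls (SD, n = 3). The ranges of the groups overlapped for both, and the log2 differences of the ratios were -0.00 (SD 0.11) for ERBB2 and 0.04 (SD 0.05) for ERBB3. For LRIG2 the ratio was 39.1 ± 1.34 with dacomitinib and 39.8 ± 3.24 in controls, a log2 difference of -0.03 (SD 0.09). ERRFI1 had 28.4 ± 0.499 FPKM per 1000 FPKM of EGFR with dacomitinib and 101.9 ± 6.94 in controls, a ratio 3.58 times lower with dacomitinib. LRIG3 had 46.6 ± 3.93 with dacomitinib and 95.2 ± 11.4 in controls, 2.04 times lower with dacomitinib. For these last ratios the groups did not overlap, with p = 0.1 in an exact two-sided permutation test, which is the smallest that 3 against 3 libraries can give; adjusted over the 5 ratios it was 0.25, and the other ratios had adjusted exact p of 0.5 to 0.9.

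**Figure D2:**
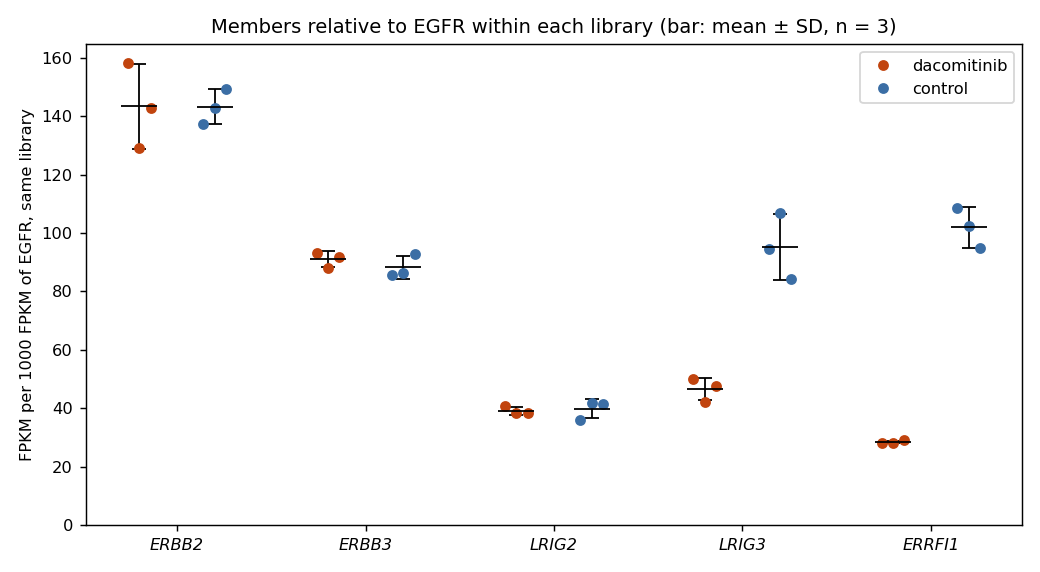
FPKM of 5 genes per 1000 FPKM of EGFR in the same library; points are libraries, dacomitinib left of control for each gene, and bars give mean ± SD (n = 3). The ERRFI1 ratio is 28.4 with dacomitinib and 101.9 in controls, while the ERBB2 ratio is 143.4 and 143.2.

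ERRFI1, the cytoplasmic inhibitor of the active receptor pair (ENSG00000116285, chromosome 1, 8004404 to 8026308), had 2.61, 2.62 and 2.72 FPKM in the dacomitinib libraries, against 8.05, 7.59 and 7.07 FPKM in the controls. The treated libraries were close to each other and well below all controls. ERRFI1 fell by 1.23 in log2(FPKM + 1) (SE 0.06, 95% interval -1.38 to -1.08, adjusted p = 1.30e-05, limma), and its mean FPKM was 2.86 times lower with dacomitinib. Of the 13748 tested genes 607 (4.42%) fell further. In the ranking of the 8 genes by FPKM, ERRFI1 was the sixth with dacomitinib, below LRIG2, and the third in controls, where its range overlapped that of LRIG3.

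LRIG3 (ENSG00000139263, chromosome 12, 58872149 to 58920522) had 4.62, 3.95 and 4.46 FPKM with dacomitinib, against 7.01, 7.91 and 6.28 FPKM in controls. The controls varied more than the treated libraries, and the groups did not overlap. LRIG3 fell by 0.59 (SE 0.09, 95% interval -0.81 to -0.37, adjusted p = 0.00150, limma), and 17.3% of the tested genes fell further. LRIG2 (ENSG00000198799, chromosome 1, 113073209 to 113132260) went the other way, with 3.76, 3.59 and 3.58 FPKM with dacomitinib, against 2.68, 3.10 and 3.10 FPKM in controls. Its rise of 0.23 (SE 0.07, 95% interval 0.05 to 0.41, adjusted p = 0.0324, limma) was the least secure of the 6. The call was lost when control library 1 was left out (adjusted p = 0.0994), and when dacomitinib library 1, 2 or 3 was left out (adjusted p = 0.0858, 0.0664 and 0.0711, with 0.000634 to 0.0994 over all its alternatives).

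LRIG1, the family member best known as a brake on ERBB receptors (ENSG00000144749, chromosome 3, 66378797 to 66501263), was hardly detected, at 0.102, 0.0171 and 0.0490 FPKM with dacomitinib, against 0.110, 0.221 and 0.184 FPKM in controls. That is 20 fragments (95% Poisson interval 12.2 to 30.9) over the dacomitinib libraries and 54 fragments (40.6 to 70.5) over the controls. The highest treated library lay just under the lowest control. Without a filter the adjusted p was 0.114 (limma), and limma-voom on genes with at least 10 fragments gave a log2 difference of -1.82 (SE 0.63, adjusted p = 0.0221). The table holds SLC25A26 on the other strand over one end of LRIG1, with 487 fragments with dacomitinib and 452 in controls, and counting is not stated to use strand.

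Ordered by FPKM, the 8 genes stood as EGFR, ERBB2, ERBB3, LRIG3, LRIG2, ERRFI1, ERBB4 and LRIG1 with dacomitinib, and no neighbours in that order overlapped in their library ranges. In controls the order was EGFR, ERBB2, ERRFI1, LRIG3, ERBB3, LRIG2, LRIG1 and ERBB4. There ERRFI1 and LRIG3 overlapped, as did LRIG3 and ERBB3, so the place of LRIG3 between them is not resolved. ERRFI1 and ERBB3 themselves did not overlap. EGFR was 6.98 times as abundant as ERBB2 per length in either group. 

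The size of the receptors' rise depends on how libraries are scaled to each other, and its direction did not under the scalings tried. The deposited FPKM give a median-ratio factor of 1.01 in all 6 libraries, that is, they are already on that scale. With TPM, where each library sums to the same total, EGFR, ERBB2 and ERBB3 rose by 0.64, 0.63 and 0.67 while the median over the 13748 tested genes was 0.23 with TPM and -0.06 as deposited. Relative to the median of the same setting, the rise of EGFR was 0.38 as deposited, 0.41 with TPM and 0.50 with quantile normalization. The lowest such value among all settings was 0.23, with voom on genes with at least 10 fragments. ERRFI1 fell by 1.13 and LRIG3 by 0.36 with TPM, both past the threshold (adjusted p = 3.12e-05 and 0.0112, limma).

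**Figure D3:**
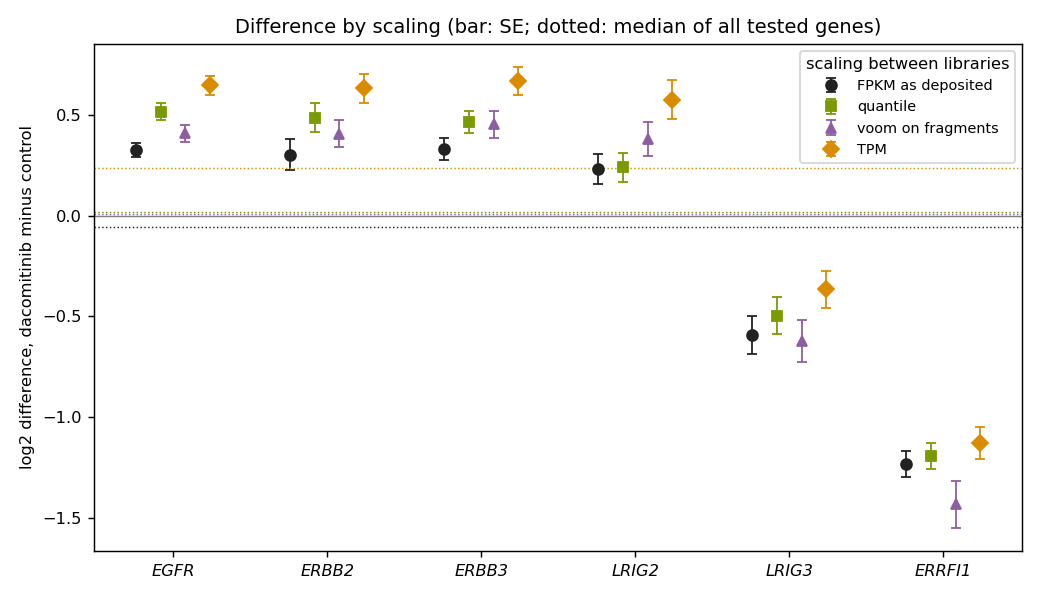
Log2 difference, dacomitinib minus control, of the 6 genes past the expression limit under 4 scalings, with SE bars; dotted lines give the median of all tested genes under the scaling of the same colour. EGFR lies between 0.33 as deposited and 0.64 with TPM, and ERRFI1 between -1.43 with voom and -1.13 with TPM. Besides the scaling, voom leaves out the 1 that is added to FPKM before the log. With 0.1 added instead, ERRFI1 as deposited was at -1.48.

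Promoter windows are shown for EGFR and ERBB2, of the 3 receptors called higher, and for ERRFI1 and LRIG3, which fell. The windows are given to let their sequences be compared. They run from 250 bases before to 50 after a RefSeq start, 5′ to 3′ on the gene's strand, on GRCh38.p14, for 7 of the 8 genes, all but ERBB3. Where a gene has several, the one nearest the start in the deposited table was taken. Capitals mark matches, on either strand, to GTAAACA (forkhead), GGGCGG (GC box), GCCNNNGGC (AP-2), TGANTCA (AP-1) or CCGGAAG (ETS).
EGFR, chr7:55018767-55019066, plus strand: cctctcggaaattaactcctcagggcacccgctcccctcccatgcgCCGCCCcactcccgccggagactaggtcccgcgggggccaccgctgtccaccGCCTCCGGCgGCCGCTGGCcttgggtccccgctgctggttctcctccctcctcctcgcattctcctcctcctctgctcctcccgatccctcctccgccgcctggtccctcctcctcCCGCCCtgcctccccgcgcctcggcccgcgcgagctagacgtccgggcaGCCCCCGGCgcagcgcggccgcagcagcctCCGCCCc
ERBB2, chr17:39687844-39688143, plus strand: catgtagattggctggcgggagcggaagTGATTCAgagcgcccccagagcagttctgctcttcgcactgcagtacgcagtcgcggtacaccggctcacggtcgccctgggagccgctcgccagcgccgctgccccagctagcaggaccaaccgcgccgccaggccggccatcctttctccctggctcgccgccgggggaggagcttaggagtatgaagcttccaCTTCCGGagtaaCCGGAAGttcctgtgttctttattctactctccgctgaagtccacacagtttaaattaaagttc
ERRFI1, chr1:8026260-8026559, minus strand: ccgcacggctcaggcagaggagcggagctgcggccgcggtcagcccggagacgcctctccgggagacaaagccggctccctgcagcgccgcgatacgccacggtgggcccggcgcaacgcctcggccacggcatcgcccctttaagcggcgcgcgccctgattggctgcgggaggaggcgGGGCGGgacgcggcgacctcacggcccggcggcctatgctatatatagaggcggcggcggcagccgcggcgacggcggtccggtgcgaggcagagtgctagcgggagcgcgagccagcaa
LRIG3, chr12:58920455-58920754, minus strand: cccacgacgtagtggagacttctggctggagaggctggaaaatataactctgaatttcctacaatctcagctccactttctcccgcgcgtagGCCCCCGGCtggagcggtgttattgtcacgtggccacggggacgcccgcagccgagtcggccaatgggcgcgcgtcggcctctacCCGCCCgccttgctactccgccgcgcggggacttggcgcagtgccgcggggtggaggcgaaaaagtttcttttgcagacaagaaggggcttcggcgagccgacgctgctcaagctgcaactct

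The windows of EGFR and ERBB2 held different motifs, and any part of the motifs in the RNA levels was not tested. That of EGFR is 75.3% G and C and held 3 GC boxes and 3 AP-2 matches, while that of ERBB2 is 60.7% G and C and held neither, but 1 AP-1 match and 2 ETS matches on opposite strands. The window of ERRFI1 is 74.7% G and C with 1 GC box, and that of LRIG3 is 63.0% G and C with 1 GC box and 1 AP-2 match. The median over all 35116 windows of the table is 58.7% G and C. A GC box stood in 6 of the 7 windows against 45.0% of all windows, an AP-2 match in 3 against 23.2%, an AP-1 match in 1 against 7.71% and an ETS match in 1 against 10.3%. The forkhead motif was in 0 of the 7 and in 3.42% of all windows. The ERBB2 window, the only 1 given for that gene, starts from a site 180 bases from the gene's start in the deposited table. It lies wholly within PGAP3 on the other strand (39671122 to 39696797), so its letters also belong to that gene. Other starts of ERBB2 were not examined, and a match describes the letters only.

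Other genes that the table places over the 8 do not add many reads, with exceptions at ERBB2 and LRIG1. EGFR-AS1, antisense within EGFR, had 228 fragments with dacomitinib and 104 in controls, small beside EGFR itself. AL034417.4, antisense at the end of ERRFI1, had 30 and 13. At ERBB2, on the other strand, PGAP3 had 1644 fragments with dacomitinib and 975 in controls and MIEN1 had 846 and 742, so reads in the shared ends could have been assigned either way. The other overlapping entries, microRNAs, pseudogenes and AC034102.2, had at most 3 fragments in a group.

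By profile over the 6 libraries, the protein-coding genes nearest to each member, among 7092 with a mean of at least 5 FPKM, were picked by the root mean square difference of centred log2(FPKM + 1). The nearest to EGFR were SGSM2 (0.0145) and ANKRD10 (0.0149). Nearest to ERBB2 were FSTL3 (0.0223) and FAHD1 (0.0284), and to ERBB3 MGAT4B (0.0200) and TLDC1 (0.0238). For ERRFI1 they were TMEM106C (0.0266) and SNRPD1 (0.0438), for LRIG3 NDUFB4 (0.0313) and GRTP1 (0.0368). LRIG2, with 7093 candidates since it is below that level itself, was nearest to MPP5 (0.0232) and RAB2B (0.0327). With 2 groups and 6 libraries many genes share such a profile, and the likeness is a description.

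Among the receptors' ligands, AREG fell by 1.66 (SE 0.15) and NRG1 fell by 1.55 (SE 0.08), the largest falls among the ligands past the expression limit. Of 11 EGF family ligands, 7 were tested and 4 lay below the limit. Of the 7, 2 rose and 4 fell, with a median difference of -0.29 in log2(FPKM + 1) against -0.06 over all tested genes. AREG, a ligand of EGFR, had 1.87 ± 0.477 FPKM with dacomitinib and 8.06 ± 1.30 FPKM in controls, and NRG1, a ligand of ERBB3 and ERBB4, 3.46 ± 0.436 and 12.0 ± 0.383 FPKM (SD, n = 3). HBEGF fell by 0.29 (SE 0.07, adjusted p = 0.0122, limma), a call lost with TPM (-0.02, adjusted p = 0.845), with quantile normalization (adjusted p = 0.0670) and with voom (adjusted p = 0.0523; 0.0104 to 0.845 over its alternatives). BTC, a ligand of EGFR and ERBB4, rose to 4.79 ± 0.689 FPKM with dacomitinib, against 2.43 ± 0.497 FPKM in controls, and NRG2, a neuregulin, to 4.92 ± 0.564, against 2.59 ± 0.614 FPKM. With TPM 2 ligands rose and 2 fell. Counts of calls shift with the scaling over the whole table too: of all tested genes, 25.4% rose and 34.8% fell as deposited, 42% and 19.8% with TPM, and 30.4% and 28.6% with quantile normalization.

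Inside the cell, of 23 adaptors and direct effectors 22 were tested, of which 10 rose and 6 fell, with a median of 0.01. With TPM 14 rose and 2 fell, and with quantile normalization 13 and 3. Across all tested genes 25.4% rose and 34.8% fell as deposited, with a median of -0.06. The shares were 42% and 19.8% with TPM, and 30.4% and 28.6% with quantile normalization. SOS2, an exchange factor that activates RAS, rose by 0.71 (SE 0.10) in log2(FPKM + 1). PIK3R3, a regulatory subunit of PI3-kinase, rose by 0.69 (SE 0.11) and EPS8, a receptor substrate that links to actin, by 0.64 (SE 0.06). GAB2, at 0.64 (SE 0.15), had the largest ratio of mean FPKM in the list, 2.37 against 1.72 for SOS2. VAV2, an exchange factor that active receptors phosphorylate, fell by 0.72 (SE 0.11), PLCG1, the phospholipase that docks on the receptors, by 0.63 (SE 0.11) and PIK3CB, a catalytic subunit of PI3-kinase, by 0.38 (SE 0.05). The fall of PIK3CB was lost with TPM (-0.08, adjusted p = 0.176, with a highest of 0.176 over its alternatives, limma).

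Of 24 genes of receptor ubiquitination and endocytosis, all tested, 7 rose and 10 fell, with a median of -0.08. With TPM 12 rose and 3 fell, and with quantile normalization 12 and 8. Over all tested genes 25.4% rose and 34.8% fell as deposited, with a median of -0.06. These shares were 42% and 19.8% with TPM, and 30.4% and 28.6% with quantile normalization. CBLB, a ubiquitin ligase that attaches ubiquitin to activated receptors, had 8.93 ± 0.706 FPKM with dacomitinib and 3.31 ± 0.339 FPKM in controls, a rise of 1.21 (SE 0.08, adjusted p = 4.15e-05, limma). Its paralogs CBL and CBLC, named after their values were seen, fell by 0.27 (SE 0.07, adjusted p = 0.0135, limma) and 0.49 (SE 0.09, adjusted p = 0.00266, limma) as deposited. With TPM neither passed, at 0.03 (adjusted p = 0.814) for CBL and -0.21 (adjusted p = 0.0598) for CBLC, and CBL also failed with quantile normalization (adjusted p = 0.525), over ranges of 0.000188 to 0.814 and 0.000265 to 0.0598 across their alternatives. The HECT ubiquitin ligases NEDD4 and WWP1 rose by 0.49 (SE 0.04) and 0.42 (SE 0.05). CLTC, the clathrin heavy chain, fell to 40.7 ± 0.606 FPKM with dacomitinib, against 71.9 ± 1.22 FPKM in controls. SH3KBP1, an adaptor that links CBL to the endocytic machinery, fell by 0.60 (SE 0.12), and EPS15L1, a clathrin adaptor, by 0.60 (SE 0.07). The fall of SH3KBP1 missed the threshold with TPM (-0.48, adjusted p = 0.0536, with a highest of 0.0536 over its alternatives, limma).

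Of 14 phosphatases and other receptor inhibitors, all tested, 3 rose and 6 fell, with a median of -0.11. With TPM 5 rose and 2 fell, and with quantile normalization 4 and 3. Of all tested genes 25.4% rose and 34.8% fell as deposited, with a median of -0.06. Those shares were 42% and 19.8% with TPM, and 30.4% and 28.6% with quantile normalization. PTPN1, the phosphatase PTP1B, which acts on EGFR at the endoplasmic reticulum, had 15.5 ± 0.516 FPKM with dacomitinib and 29.5 ± 1.28 FPKM in controls, a fall of 0.89 (SE 0.05, adjusted p = 1.69e-05, limma). PTPRG, a receptor-type phosphatase, fell by 0.54 (SE 0.10). PTPN18 fell by 0.38 (SE 0.11, adjusted p = 0.0202, limma), a call lost under 6 of its 16 alternatives, among them TPM (-0.20, adjusted p = 0.272) and leaving out control library 1 or 3 (adjusted p = 0.0658 and 0.0648) or dacomitinib library 1 or 2 (adjusted p = 0.0592 and 0.0603), with 0.00214 to 0.272 over its alternatives. SOCS3, a suppressor of cytokine signalling, rose by 0.69 (SE 0.09), PTPN6, the phosphatase SHP-1, by 0.59 (SE 0.07) and PTPN2, a close relative of PTP1B, by 0.25 (SE 0.05).

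**Figure D4:**
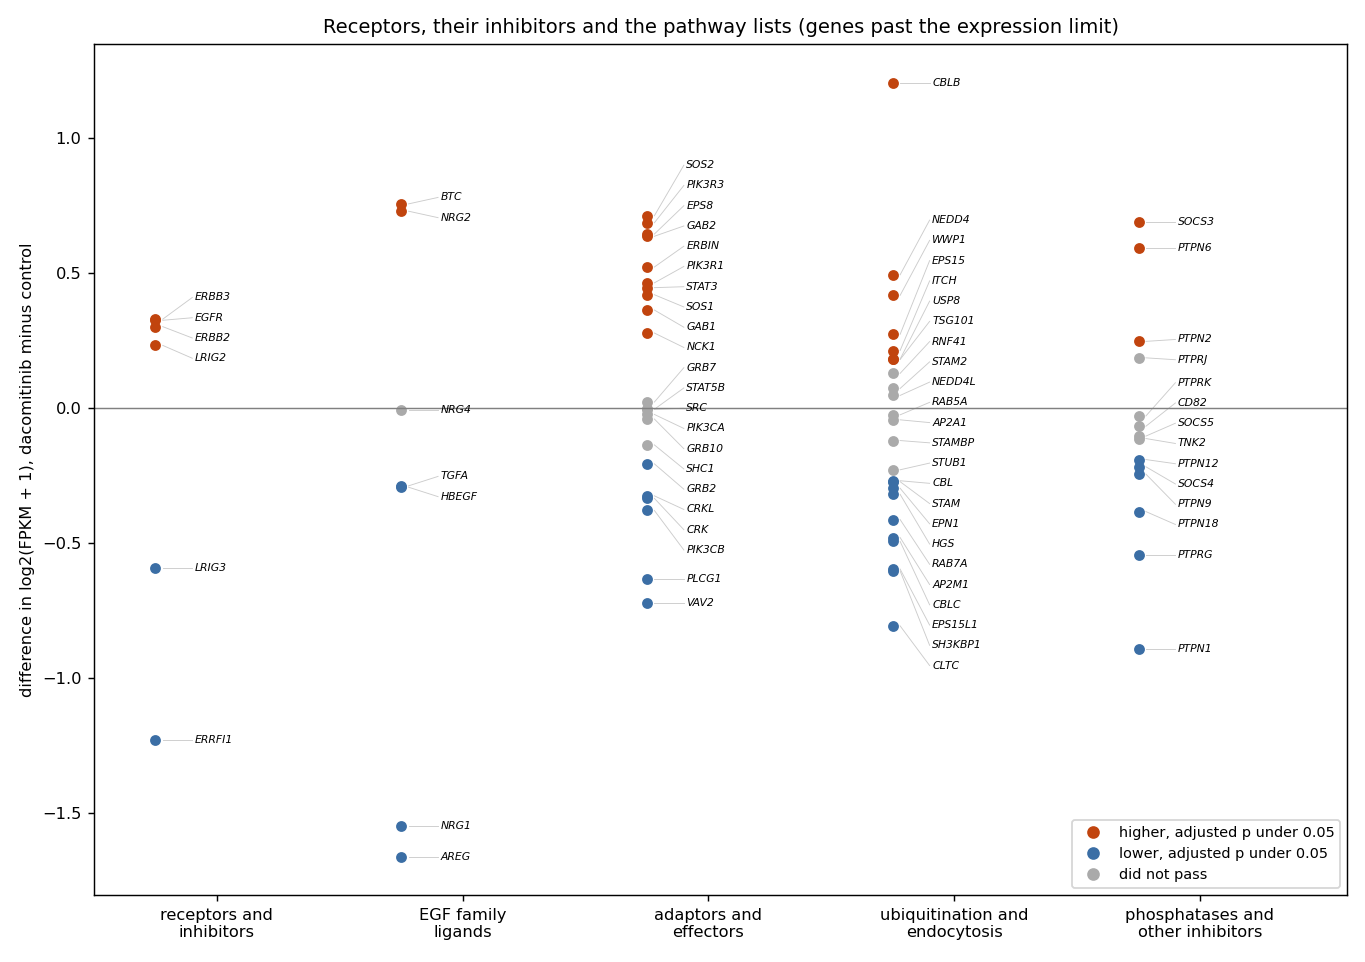
Difference in log2(FPKM + 1), dacomitinib minus control, of every gene past the expression limit among the receptors and inhibitors and in the 4 pathway lists; colour gives the call (adjusted p under 0.05) and grey genes did not pass. ERRFI1 at -1.23 lies near the ligands NRG1 at -1.55 and AREG at -1.66, and CBLB at 1.21 is the highest point.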

How the data were processed

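Total RNA was sequenced in 3 dacomitinib and 3 control samples. The authors deposited FPKM per gene. The tools named, with no role for each, are DESeq2 1.20.0, featureCounts, HISAT2, fastp and CASAVA, on GRCh38, per the submitters' processing notes. Every FPKM, times gene length and 1 library size inferred per library from the smallest steps, came out as a whole number of fragments (100%, tolerance 0.01 fragments), which gave fragments per gene, between 14960650 and 16179273 per library.

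FPKM are not counts, so limma 3.58.1 (R 4.3.3) with a mean-variance trend was run on log2(FPKM + 1), which understates changes of low genes, for genes with a mean of at least 1 FPKM. Benjamini-Hochberg adjusted p under 0.05 was called, two-sided. On simulated fragments the procedure recovered 71.7% of tested genes changed by a log2 of 0.5, 98% at 1 and 100% at 2, with 9 false calls. Smaller changes, such as those of the receptors and LRIG2, were not simulated. The simulated spread was fixed and far fewer genes changed than were called here, so the rates need not hold for these data. Ratios were compared by exact permutation (scipy 1.17.1).

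Named were the 8 members and, in each list, the 3 strongest risers and the 3 strongest fallers past the threshold, or fewer. Strength was the difference in log2(FPKM + 1), and a ratio of mean FPKM can rank low genes otherwise. The 2 nearest profiles of each tested member and genes overlapping a member were named too. CBL, CBLC and GAB2 are named outside this rule. Members and lists were chosen with earlier results of these data known. The alternatives were other pseudocounts, filters, scalings and limma settings, a replicate block, voom with TMM, leaving out each library, and 1 voom fit chosen after seeing the data. Protein sequences were not used here.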

Additional observations from a re-analysis of the deposited data

How the results depend on the processing

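EGFR, ERBB2, ERBB3, ERRFI1 and LRIG3 kept their direction and their call under all 17 alternatives, with log2 differences of 0.30 to 0.64, 0.24 to 0.63, 0.31 to 0.67, -1.54 to -1.13 and -0.73 to -0.36. LRIG2 kept its direction under the 16 alternatives that tested it (0.18 to 0.57; at a mean of at least 5 FPKM it was not tested), but its call was lost without a filter (0.23, adjusted p = 0.0711, limma) and in the leave-one-out fits named above (0.18 to 0.26 over all 6). A replicate block on the numbers in the column names, which no label ties to shared cultures, gave 7883 calls against 8271 and left LRIG2 at 0.23 (adjusted p = 0.0739, limma). Deviations of same-numbered libraries correlated at 0.03, -0.02 and 0.04 across genes, and not every library correlated best with its own number. The differences of ERBB4 and LRIG1, 0.19 and -0.15 in log2(FPKM + 1), were 1.52 and -1.82 with voom on genes with at least 10 fragments, a scale without that pseudocount. The log2 difference of the ERRFI1 to EGFR ratio, -1.84, was -1.55 with FPKM + 1.

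Genes higher, 3493 as reported, were 1946 at a mean of at least 5 FPKM, which tests fewer genes, and 5779 with TPM; genes lower, 4778, were 2721 with TPM. The share higher among calls was 42.2% as deposited, 68.0% with TPM and 51.5% with quantile normalization. With TPM, lower genes were 2 ligands, 2 adaptors, 3 endocytosis genes and 2 phosphatases, and higher ones were 12 endocytosis genes and 5 phosphatases. With quantile normalization, lower genes were 2 ligands, 3 adaptors and 3 phosphatases, and 12 endocytosis genes were higher. CBL was at 0.028 with TPM, against -0.27 as deposited. At a mean of at least 5 FPKM 0 ligands were higher, since those that rose are below that level. On the forward strand alone, GTAAACA was in 1.75%, GGGCGG in 30.6% and CCGGAAG in 5.75% of windows. Counts of 20 and 54 fragments limit what can be said of LRIG1.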
